A study of Danio rerio with 17 samples.

Results

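Matrix metalloproteinases (MMPs) are zinc proteases that cut collagens and other proteins of the extracellular matrix, and tissue inhibitors of metalloproteinases (TIMPs) bind and block them. In mammals the membrane-anchored MMP14 and TIMP2 together capture the inactive form of MMP2 at the cell surface, where MMP14 cuts it into the active enzyme. Matrix turnover by these proteins is best known in liver from fibrosis and from tumor invasion. TGFBI is a secreted matrix protein, induced by transforming growth factor beta (TGF-beta), that binds collagens and integrins. The 9 genes described here were mmp2 and mmp9 (gelatinases, which cut denatured collagen and type IV collagen), mmp13a (a collagenase), mmp14a, mmp14b and mmp15b (membrane-type MMPs), timp2a and timp2b (the zebrafish copies of TIMP2) and tgfbi. They were chosen by symbol out of 20908 genes that the array annotation named. They hold 18 of the 75212 probe sets, and each gene is given by its probe set with the highest mean. All 9 were measured in all 17 arrays and none was left out by a filter.

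The arrays were hybridised with liver RNA of adult transgenic zebrafish of 6 months, described as female, in 6 groups of 2 lines. HBx,src,p53 fish, labelled HBx,src,p53- and heterozygous for p53 (p53-/+) per the protocol, gave 3 DIO+OF, 3 DIO and 2 NOR arrays, and HBx,src fish gave 3 arrays of each group. DIO fish were overfed to obesity with 83 mg of Artemia cysts a day for each fish, and NOR fish received 6.9 mg. DIO+OF fish were DIO fish that also received Oligo-Fucoidan (OF), a low molecular weight sulfated polysaccharide of brown seaweed, by oral gavage at 300 mg/kg, several times a week over a month. NOR and DIO fish of both lines carried the same transgenes as the fish given OF. Per the methods of the paper given for these data these were the hepatitis B virus X protein fused to mCherry and src, both under the liver promoter of fabp10a, with EGFP in the heart as a mark of carriers. DIO and NOR fish are labelled as mock, and no gavage without OF is described for them, so OF cannot be told apart from gavage under anesthesia in these data. That paper is about irradiated fish of these lines and names another array series, so its methods (the transgenes, the schedule and anesthesia of gavage, and a threshold used below) may not hold for each of these arrays, while diets, dose and genotypes come from the labels. The labels name no irradiation, give an age later than the end of their own feeding protocol, and do not say whether an array holds 1 fish or several, so the p-values measure the spread between these arrays, which may be technical in part.

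All HBx,src,p53 arrays were labelled batch 2 and all HBx,src arrays batch 1, so the line cannot be told apart from the batch and levels were not compared between the lines. Array medians were 2.552 to 2.684 in HBx,src,p53 and 2.095 to 2.212 in HBx,src on the log2 scale. Replicate arrays correlated at a Spearman rho of 0.8926 to 0.9163 in HBx,src,p53 and of 0.8027 to 0.8477 in HBx,src. The 8 hepatocyte markers had a median log2 signal of 12.11 to 13.17 in every array, so the liver label was borne by its defining genes. Exocrine pancreas markers had signal too, with array medians of up to 10.80 in HBx,src,p53 and 6.46 in HBx,src, and the share of other tissue was not tested. An array of HBx,src,p53, the DIO+OF replicate 3, stood apart and is called the vtg2-low array here. Its log2 signal of vtg2, an egg yolk precursor made by the female liver, was 2.76, against 13.75 to 14.04 in the other 16 arrays. Its signal of esr1, an estrogen receptor, was 5.89, against 9.76 to 10.82 in the rest of the line. Calls that rest on this array are therefore given with and without it, and values without a call only in part.

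The first question was what OF changed in overfed fish. In HBx,src,p53 livers mmp2 and tgfbi rose with OF, and the other 7 genes did not pass the test. In HBx,src livers mmp14b fell with OF, and the other 8 did not pass. A gene passed when its Benjamini-Hochberg adjusted p over all probe sets was under 0.05 in limma, and values after ± are standard errors unless marked SD. For OF in HBx,src,p53 that made 2 of 9 genes, against 1.58% of all probe sets in either direction and 0.814% as higher. For OF in HBx,src it made 1 of 9, against 0.419% in either direction and 0.186% as lower. The 9 genes were chosen with earlier results of these data known, so neither count can be weighed against those shares. The fall of mmp14b in HBx,src was among those results. Shares of calls are over all probe sets, many of which have no gene symbol, while each of the 9 genes is the probe set of the highest mean of a named gene. The 2 are thus not like sets. The median log2 fold change of the 9 genes was 0.61 in HBx,src,p53, against 0.041 over all genes, and 0.00 in HBx,src, against -0.01 over all genes. The medians of HBx,src,p53 include the vtg2-low array.

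**Figure D1:**
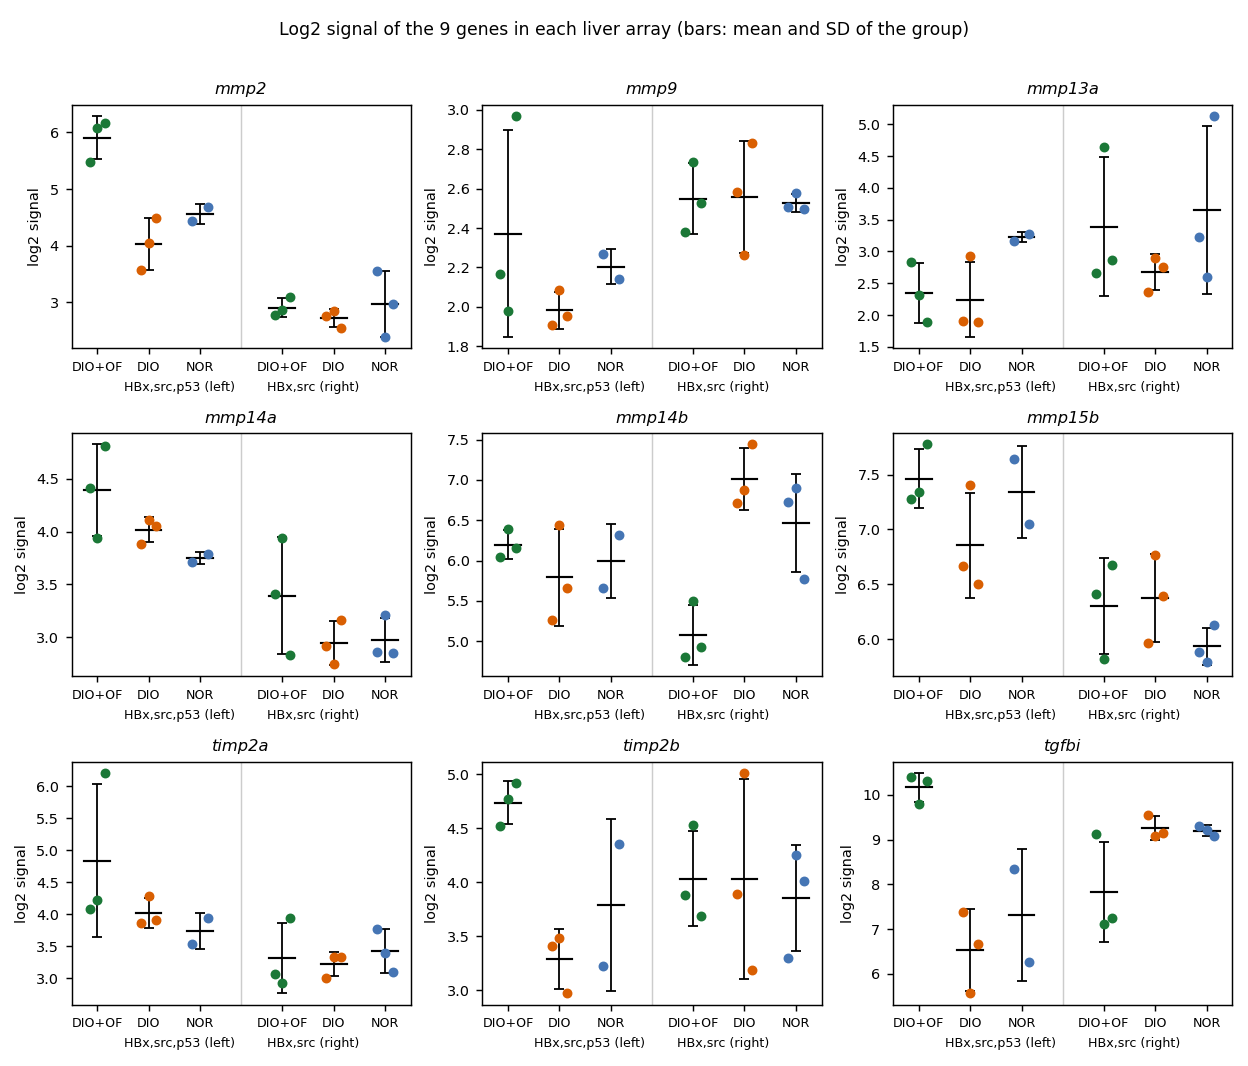
Log2 signal (vertical axis, its range set for each gene) of the 9 genes in each of the 17 liver arrays, by line and group, with 1 point per array and bars for the group mean and SD. The 3 DIO+OF arrays of HBx,src,p53 lie above all other arrays of their line for mmp2 and tgfbi, and the 3 DIO+OF arrays of HBx,src lie below all other arrays of their line for mmp14b.

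Among the gelatinases, mmp2 had log2 signals of 5.48, 6.08 and 6.17 in the DIO+OF arrays of HBx,src,p53, against 3.57, 4.04 and 4.49 in the DIO arrays. All DIO+OF arrays were above all DIO arrays, and above both NOR arrays (4.44 and 4.69). The group means were 5.91 ± 0.38 with OF and 4.03 ± 0.46 without (SD, n = 3 each). The log2 fold change was 1.88 ± 0.29, or 3.67-fold, with an adjusted p of 0.00684. With the vtg2-low array left out it was 1.74 ± 0.33 with an adjusted p of 0.0380. In HBx,src the signals of mmp2 were 2.77, 2.86 and 3.09 with OF and 2.76, 2.86 and 2.54 in DIO arrays, which overlap, and the log2 fold change was 0.19 ± 0.29 (adjusted p = 0.889). mmp2 was represented by a further, dimmer probe set with a mean of 2.15, which correlated with the first at r = -0.35 over 17 arrays and passed in no comparison. The rise of mmp2 thus rests on 1 of its 2 probe sets.

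The log2 signal of mmp9, the other gelatinase, which is made in large amounts by neutrophils and macrophages in mammals, was 1.98 to 2.97 in the DIO+OF arrays and 1.91 to 2.09 in the DIO arrays of HBx,src,p53. The highest of these was the vtg2-low array, and the log2 fold change of 0.39 ± 0.23 (adjusted p = 0.469) was 0.09 ± 0.18 without it. In the other arrays of the line mmp9 lay below the array medians of 2.552 to 2.684. Its further probe sets had means of 2.11, 1.69 and 1.50 over all arrays. A change of mmp9 may thus have gone unmeasured. In HBx,src mmp9 spanned 2.38 to 2.74 with OF and 2.26 to 2.83 in DIO arrays, with a log2 fold change of -0.01 ± 0.23. The signal of mmp13a, a collagenase that opens fibrillar collagen, differed widely between some replicates. It was 1.89 to 2.83 in DIO+OF and 1.90 to 2.92 in DIO arrays of HBx,src,p53, on both sides of the array medians of that line. In HBx,src it was 2.66, 4.64 and 2.86 with OF and 2.35 to 2.90 in DIO arrays. Its log2 fold changes were 0.10 ± 0.60 and 0.72 ± 0.60 in HBx,src,p53 and HBx,src, with intervals from -1.19 to 1.40 and from -0.57 to 2.01, which hold 2-fold changes of mmp13a in either line at one end or both.

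Of the membrane-type MMPs, mmp14b had log2 signals of 4.80, 5.50 and 4.92 in the DIO+OF arrays of HBx,src, against 6.72, 6.87 and 7.44 in DIO arrays and 6.73, 6.90 and 5.77 in the NOR arrays. The highest DIO+OF array was below the lowest array of both other groups. The group means were 5.08 ± 0.37 with OF and 7.01 ± 0.38 without (SD, n = 3 each), a log2 fold change of -1.93 ± 0.35, or 3.82-fold lower, with an adjusted p of 0.0359. This call was lost when any of 9 single arrays was left out, DIO replicates 1, 2 and 3 and DIO+OF replicates 2 and 3 of HBx,src among them, with adjusted p-values up to 0.142 and log2 fold changes of -2.15 to -1.72. The other 4 were NOR replicate 1 of HBx,src and DIO replicate 3 and DIO+OF replicates 1 and 2 of HBx,src,p53, which enter through the shared estimate of the spread. In HBx,src,p53 mmp14b was at 6.04, 6.40 and 6.15 with OF and at 5.27, 6.44 and 5.67 in DIO arrays, with a difference of 0.41 ± 0.35 (adjusted p = 0.659).

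Its paralog mmp14a was at 4.42, 3.94 and 4.81 in the DIO+OF arrays of HBx,src,p53, against 3.88, 4.11 and 4.06 in the DIO arrays. In HBx,src it was at 3.41, 3.94 and 2.83, against 2.91, 2.75 and 3.16. The groups overlap in both lines, and the log2 fold changes were 0.37 ± 0.27 and 0.45 ± 0.27. Without the vtg2-low array, which had the highest mmp14a signal of its line, the value of HBx,src,p53 was 0.16 ± 0.28. In HBx,src the further, dimmer probe sets of mmp14a had log2 fold changes of -0.18 ± 0.24 and 0.00 ± 0.16, so no direction of mmp14a is drawn there. mmp15b, a membrane-type MMP of its own gene, was at 7.28, 7.34 and 7.77 with OF and 6.67, 7.40 and 6.50 in DIO arrays of HBx,src,p53 (log2 fold change 0.61 ± 0.30, adjusted p = 0.369). Without the vtg2-low array the log2 fold change was 0.45 ± 0.33. In HBx,src mmp15b was at 5.81 to 6.67 with OF and 5.97 to 6.77 in DIO arrays (-0.08 ± 0.30).

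Of the inhibitors, timp2b was at 4.52, 4.77 and 4.92 in the DIO+OF arrays of HBx,src,p53, against 3.41, 3.48 and 2.97 in the DIO arrays. The groups did not overlap, and the log2 fold change was 1.45 ± 0.43, or 2.73-fold. Its unadjusted p was 0.00440 and its adjusted p 0.115, so it met the threshold named in that paper's methods (at least 2-fold with an unadjusted p under 0.05) and did not pass over all probe sets. Leaving out the vtg2-low array gave 1.36 ± 0.49 (adjusted p = 0.294). In HBx,src timp2b was at 3.89, 4.53 and 3.68 with OF and 3.89, 5.02 and 3.19 in DIO arrays, with a log2 fold change of 0.00 ± 0.43. The DIO+OF arrays of HBx,src,p53 held timp2a at 4.08, 4.22 and 6.22, against 3.86, 4.29 and 3.90 in the DIO arrays. The highest value was that of the vtg2-low array, and the log2 fold change of 0.82 ± 0.45 was 0.14 ± 0.30 without it. The further probe set of timp2a, with a lower mean, ran the other way: it was at 3.10, 3.05 and 3.68 in DIO+OF arrays against 4.02, 4.24 and 5.07 in DIO arrays of HBx,src,p53, with no overlap. Its log2 fold change was -1.16 ± 0.47 (unadjusted p = 0.0282, adjusted p = 0.265), so the direction of timp2a in HBx,src,p53 depends on the probe set and none is drawn here. In HBx,src the first probe set of timp2a had a log2 fold change of 0.09 ± 0.45, with arrays from 2.93 to 3.94 with OF and from 3.00 to 3.33 in DIO arrays.

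For OF in HBx,src,p53 the largest fold change among the 9 genes was that of tgfbi. Its log2 signals were 10.40, 9.80 and 10.32 in the DIO+OF arrays of HBx,src,p53, against 7.39, 5.56 and 6.67 in DIO arrays and 8.35 and 6.27 in the NOR arrays. Every DIO+OF array was above every other array of the line. The means were 10.17 ± 0.32 with OF and 6.54 ± 0.92 without (SD, n = 3 each), a log2 fold change of 3.63 ± 0.58, or 12.4-fold, with an adjusted p of 0.00824. The value without the vtg2-low array was 3.56 ± 0.68 (adjusted p = 0.0390). The spread of tgfbi differed between the groups: the DIO and NOR arrays of HBx,src,p53 ranged over 1.83 and 2.08 log2 units and the DIO+OF arrays over 0.60. In HBx,src tgfbi was at 9.12, 7.12 and 7.25 with OF, against 9.56, 9.08 and 9.14 in DIO arrays and 9.31, 9.22 and 9.08 in NOR arrays. Replicates 2 and 3 were thus lower than all other arrays of the line, and replicate 1 was among the DIO arrays. The log2 fold change was -1.43 ± 0.58 with an unadjusted p of 0.0289 and an adjusted p of 0.355, so it did not pass.

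**Figure D2:**
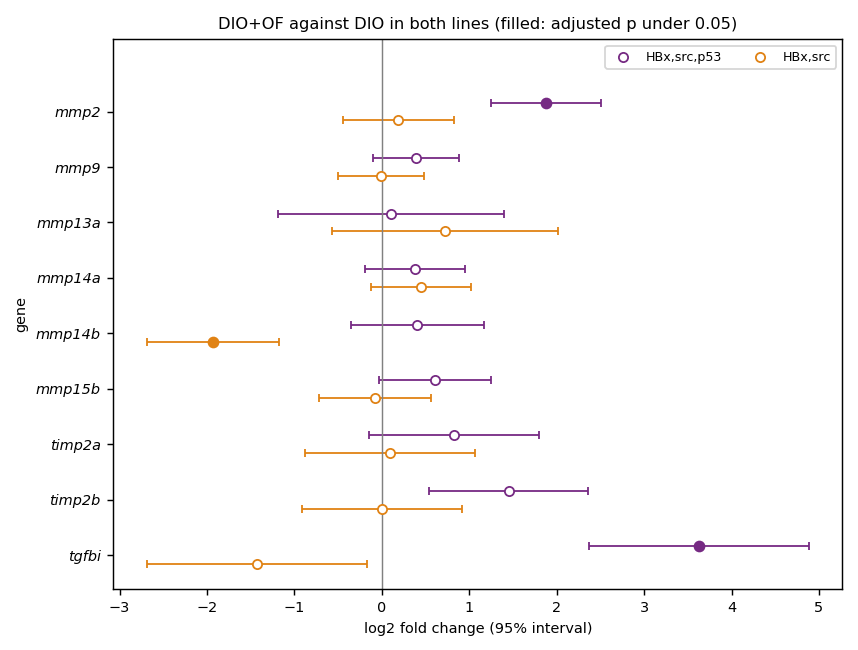
Log2 fold change of DIO+OF against DIO (horizontal axis, points) with its 95% interval for each of the 9 genes in HBx,src,p53 and HBx,src. Filled points passed at an adjusted p under 0.05: mmp2 at 1.88 and tgfbi at 3.63 in HBx,src,p53, and mmp14b at -1.93 in HBx,src.

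With the probe set of the highest mean all 9 genes had a log2 fold change above 0 for OF in HBx,src,p53, between 0.10 and 3.63, and 5 of 9 did in HBx,src, between -1.93 and 0.72. This did not hold for timp2a and mmp13a of HBx,src,p53 under every setting: the mean of all probe sets gave -0.17 for timp2a and -0.18 for mmp13a, and mmp13a reached -0.14 with 1 array left out. The DIO+OF arrays of HBx,src,p53 did not overlap the DIO arrays for 3 of the 9 genes (mmp2, timp2b and tgfbi, all higher), against 15% of all genes as higher and 24.2% in either direction. In HBx,src this held for mmp14b, 1 of 9, against 8.55% as lower and 18.2% in either direction. By the rule of at least 2-fold and an unadjusted p under 0.05, 3 genes were higher in HBx,src,p53 (mmp2, timp2b and tgfbi), against 3.67% of probe sets as higher. By that rule 2 genes were lower in HBx,src (mmp14b and tgfbi), against 2.1% as lower. The counts of both lines are of genes chosen with earlier results of these data known. Those of HBx,src include mmp14b, whose fall was among these results. Leaving the vtg2-low array out kept the same 2 calls of HBx,src,p53, mmp2 and tgfbi, against 0.59% of all probe sets.

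Some cell type markers also differed with OF in HBx,src,p53. All 8 hepatocyte markers had a log2 fold change above 0 there, with a median of 0.37 and 0 passing. So did all 5 biliary markers, with a median of 0.15 and 0 passing. The 6 endothelial markers measured had a median log2 signal of 6.02 to 6.39 in the DIO+OF arrays, against 4.92 to 5.59 in the DIO arrays, and 2 of the 6 rose: kdrl, a receptor for vascular endothelial growth factor, by 1.32 ± 0.21, and cdh5, the cadherin of endothelial junctions, by 1.37 ± 0.26. When the vtg2-low array was left out kdrl passed (1.24 ± 0.23, adjusted p = 0.0346) and cdh5 did not (1.07 ± 0.23, adjusted p = 0.0702). The 5 macrophage markers had medians of 5.69 to 6.40, against 4.75 to 5.74, with 0 passing. All 5 had higher means with OF, and the middle one of their log2 differences was 0.91. Among them 2 had an unadjusted p under 0.05, against 14.7% of all probe sets. For 3 of them every DIO+OF array was above every DIO array, against 15% of all genes. The 9 stellate and fibroblast markers were at 3.11 to 4.1, against 3.03 to 3.32, with 0 passing and 4 of 9 fold changes above 0. Their upper end of 4.1 was the vtg2-low array, and the other DIO+OF arrays lay within the range of the DIO arrays. The 6 neutrophil markers were at 3.97 to 4.41, against 3.61 to 3.95, with 0 passing and 3 of 6 fold changes above 0. Of these cpa5 was at 11.40, 8.36 and 6.77 with OF and 8.56, 10.36 and 10.82 in DIO arrays. The exocrine pancreas marker prss1 ran close to it, at 10.80, 8.12 and 6.67 and at 8.50, 10.07 and 10.39. Whether cpa5 marks neutrophils here was not tested. The 3 erythrocyte markers were at 5.43 to 7.62, against 5.11 to 5.51, with 0 passing, 2 of 3 at an unadjusted p under 0.05 and a median log2 fold change of 0.98. The vtg2-low array was the highest for all 3. There alas2 was at 7.62, against 5.91 and 5.43 in the other DIO+OF arrays and 5.11, 5.39 and 5.51 in DIO arrays. The signal of slc4a1a was 5.04 there, against 3.55 and 3.56 in the other DIO+OF arrays and 3.33, 3.59 and 3.42 in DIO arrays. The 6 ovary markers were at 2.05 to 2.37 with OF and 3.13 to 5.17 in DIO arrays. The NOR arrays of HBx,src,p53 were at 2.35, so the DIO arrays stood above both other groups. Against DIO 2 of the markers passed as lower: zp2.5, an egg coat protein, by 3.04 ± 0.65, and gdf9, an oocyte growth factor, by 0.83 ± 0.19. Neither ovary gene passed when the vtg2-low array was left out (adjusted p = 0.123 for zp2.5 and 0.171 for gdf9). In HBx,src the endothelial markers were at 4.64 to 5.43 with OF and 5.53 to 5.78 in DIO arrays, the macrophage markers at 4.40 to 6.05 and 4.33 to 5.66, and the exocrine pancreas markers at 4.18 to 4.61 and 4.85 to 6.08, with 0 passing. These arrays measure whole liver, in which more cells of a type and more RNA per cell cannot be told apart, and the part of these cell types in the values of mmp2, tgfbi and mmp14b was not tested.

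The next question was whether OF acted differently in the lines, tested as the OF effect of HBx,src,p53 minus that of HBx,src. The effect differed for 2 of the 9 genes, tgfbi and mmp14b, against 0.775% of all probe sets in either direction and 0.335% as higher. This count includes mmp14b, whose fall in HBx,src was known when the genes were chosen, so it cannot be weighed against those shares. For tgfbi the effects were 3.63 in HBx,src,p53 and -1.43 in HBx,src, a difference of 5.06 ± 0.83 log2 units (adjusted p = 0.0214). For mmp14b they were 0.41 and -1.93, a difference of 2.34 ± 0.50 (adjusted p = 0.0492). The difference for mmp2 was 1.69 ± 0.42 (adjusted p = 0.0827) and that for timp2b 1.45 ± 0.60 (adjusted p = 0.329), so neither was shown to differ. When the vtg2-low array was left out 0 of 9 passed, against 0.137% of all probe sets. The values were then 4.99 ± 0.91 (adjusted p = 0.0525) for tgfbi and 2.36 ± 0.55 (adjusted p = 0.101) for mmp14b. The call of tgfbi was also lost without DIO replicate 3 of HBx,src,p53 or without DIO replicate 2, DIO+OF replicate 2 or DIO+OF replicate 3 of HBx,src, with log2 values of 4.70 to 5.15 and adjusted p-values up to 0.0567. The call of mmp14b was kept without each of 2 of the 17 arrays. Since each line lies in 1 batch, a difference between the lines in the OF effect cannot be told apart from one between the batches.

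DIO+OF arrays were next set against NOR arrays, which asks whether fish given OF differed from fish on the normal diet. This comparison shares the DIO+OF arrays with the one above. In HBx,src,p53 mmp2 and tgfbi were higher, 2 of 9 genes, against 3.82% of all probe sets in either direction and 1.65% as higher. As the genes were chosen with earlier results of these data known, this count cannot be weighed against those shares. The log2 fold changes were 1.34 ± 0.33 for mmp2 (2.54-fold, adjusted p = 0.0389) and 2.86 ± 0.65 for tgfbi (7.26-fold, adjusted p = 0.0290). The further, dimmer probe set of mmp2 ran the other way, at 2.37, 2.33 and 2.26 in DIO+OF arrays against 2.54 and 2.67 in NOR arrays. These did not overlap, and its log2 fold change was -0.28 ± 0.18 (adjusted p = 0.540), so the direction of mmp2 here depends on the probe set. For timp2a the value was 1.1 ± 0.51 (adjusted p = 0.312), for timp2b 0.95 ± 0.48 (adjusted p = 0.373) and for mmp14a 0.64 ± 0.30 (adjusted p = 0.320). Without the vtg2-low array they were 0.42 ± 0.33 for timp2a, 0.86 ± 0.54 for timp2b and 0.43 ± 0.30 for mmp14a. The DIO+OF arrays did not overlap the 2 NOR arrays for 6 of the 9 genes, against 38.9% of all genes. Both calls were lost without the vtg2-low array, at 1.21 ± 0.36 (adjusted p = 0.107) for mmp2 and 2.79 ± 0.74 (adjusted p = 0.0723) for tgfbi, where 2.3% of all probe sets passed. They were also lost without NOR replicate 2, where tgfbi was 1.82 (adjusted p = 0.316), and without DIO+OF replicate 2. Over all 17 arrays left out in turn, mmp2 kept its call in 8 and tgfbi in 13. The endothelial markers were at 6.02 to 6.39 in these DIO+OF arrays and 5.15 to 5.40 in the NOR arrays, and their part in these values was not tested.

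In HBx,src 0 of 9 genes passed against NOR, where 0.0811% of all probe sets did, and 2 of 9 had an unadjusted p under 0.05, against 7.54% of all probe sets. These were mmp14b, at -1.39 ± 0.35 (2.62-fold lower, adjusted p = 0.214), whose groups did not overlap (1 of 9 genes, against 7.68% of all genes as lower), and tgfbi, at -1.37 ± 0.58 (adjusted p = 0.606). The counts of 2 and 1 include mmp14b, whose fall with OF in HBx,src was known when the genes were chosen. The remaining 7 genes lay between -0.26 and 0.42 on the log2 scale.

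Overfeeding alone was the last comparison of the design, and it shares its DIO arrays with the OF comparison and its NOR arrays with the one just given. No gene of the 9 passed for DIO against NOR in HBx,src,p53 (0 of 9, against 2.91% of all probe sets) or in HBx,src (0 of 9, against 0.00665%). With the probe sets of the highest mean none had an unadjusted p under 0.05 in limma in either line. In HBx,src,p53 7 of the 9 values were below 0, with a median of -0.49, against -0.007 over all genes. They ran from -0.98 ± 0.67 for mmp13a to 0.28 ± 0.51 for timp2a, with -0.53 ± 0.33 for mmp2 and -0.77 ± 0.65 for tgfbi. The further probe set of timp2a was at 4.02, 4.24 and 5.07 in DIO arrays against 2.60 and 2.58 in NOR arrays, with no overlap and a log2 fold change of 1.85 ± 0.53 (unadjusted p = 0.00370, adjusted p = 0.0806), so the value of timp2a depends on the probe set here too. In HBx,src the median was 0.03, against -0.015 over all genes, with -0.98 ± 0.60 for mmp13a and 0.55 ± 0.35 for mmp14b at the ends. The groups did not overlap for 3 of 9 genes in HBx,src,p53 (mmp9 and mmp13a lower, mmp14a higher), against 39.1% of all genes, and for 0 of 9 in HBx,src, against 13.6%. The second probe set of mmp13a ran the other way in HBx,src,p53, at 0.77 ± 0.49 (adjusted p = 0.486) with overlap. There the further probe sets of mmp9 were at -0.43 ± 0.34, 0.38 ± 0.23 and -0.28 ± 0.21, and those of mmp14a at 0.00 ± 0.27 and -0.06 ± 0.18. No direction of mmp13a, mmp9 or mmp14a is therefore drawn. The 95% intervals of tgfbi, from -2.18 to 0.63 in HBx,src,p53 and from -1.20 to 1.31 in HBx,src, hold changes of more than 2-fold, so the absence of calls does not show equal levels. The 6 ovary markers were at 3.13 to 5.17 in the DIO arrays of HBx,src,p53 and at 2.35 in the NOR arrays. For DIO against NOR 1 of the 6 passed there as higher, and the part of ovary signal in the values of the 9 genes was not tested. With the probe sets of the highest mean, the diet effect differed between the lines for 0 of 9 genes, against 0.108% of all probe sets, and for 0 at an unadjusted p under 0.05. The closest of these was mmp15b, at -0.93 ± 0.45 (adjusted p = 0.510). Further probe sets of mmp13a (1.63 ± 0.66, unadjusted p = 0.0266) and timp2a (1.74 ± 0.71, unadjusted p = 0.0289) did not pass either (adjusted p = 0.401 and 0.411).

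**Figure D3:**
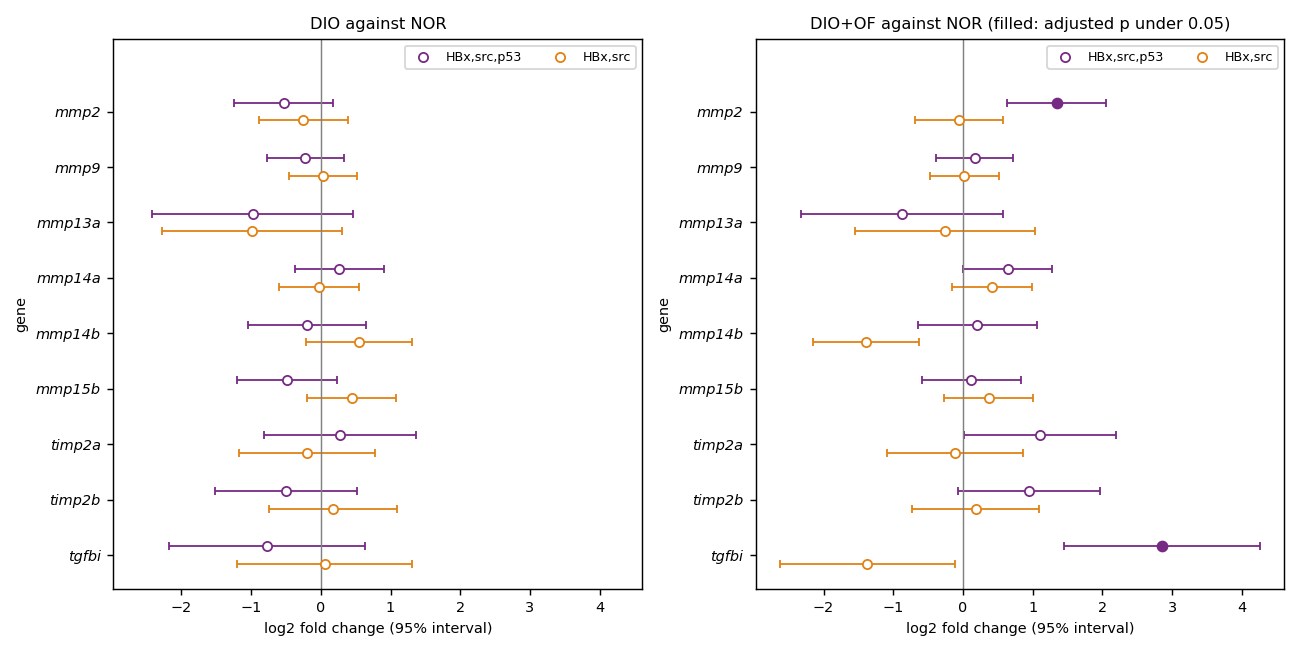
Log2 fold changes (horizontal axes, points) with 95% intervals of the 9 genes for DIO against NOR on the left and DIO+OF against NOR on the right, in HBx,src,p53 and HBx,src. Filled points passed at an adjusted p under 0.05, which held for mmp2 (1.34) and tgfbi (2.86) on the right in HBx,src,p53 and for no gene on the left.

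The genes around these proteins were then read as 8 lists of other metalloproteinases, other inhibitors, ADAM and ADAMTS proteases, activators and the plasmin system, the TGF-beta pathway, matrix substrates, integrins and receptors, and inflammatory inducers, with 165 genes measured. For OF in HBx,src,p53 6 of the 165 rose and 0 fell, or 3.636%, against the 1.58% of all probe sets, with a median log2 fold change of 0.15. The median over all genes was 0.041. With the vtg2-low array left out it was 1 of 165 (adam10b), against 0.59% of all probe sets. For OF in HBx,src 0 of 165 passed, and the median was -0.04. There 18 of the 165 had an unadjusted p under 0.05, against 11.5% of all probe sets. The 165 are named genes by their probe set of the highest mean, unlike all probe sets, so an excess over those shares cannot be credited to the lists.

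Of the 27 ADAM and ADAMTS proteases, relatives of the MMPs that shed cell surface proteins or cut matrix, adam10b and adamts13 rose with OF in HBx,src,p53. adam10b, a sheddase, was at 7.03, 7.14 and 6.93 in the DIO+OF arrays, against 5.62, 5.78 and 5.57 in the DIO arrays. Its log2 fold change was 1.38 ± 0.23 (adjusted p = 0.00876), and it was 1.43 ± 0.26 (adjusted p = 0.0285) without the vtg2-low array. adamts13, which cuts von Willebrand factor in mammals, was at 8.66, 8.75 and 9.19, against 8.16, 7.52 and 7.71, with 1.07 ± 0.23 (adjusted p = 0.0363), which did not pass without the vtg2-low array (0.91 ± 0.25, adjusted p = 0.149). In HBx,src adamts13 was at 7.28, 6.49 and 6.73 with OF and 7.66, 7.86 and 7.45 in DIO arrays (-0.82 ± 0.23, adjusted p = 0.145). The direction of adamts13 in each line was thus that of tgfbi, and the OF effect differed between the lines by 1.89 ± 0.33 (adjusted p = 0.0244).

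Among 16 activators and plasmin system genes, pcsk5b rose by 1.22 ± 0.23 (adjusted p = 0.0189) with OF in HBx,src,p53, and did not pass without the vtg2-low array (1.08 ± 0.25, adjusted p = 0.0828). It encodes a proprotein convertase, a class of enzymes that cuts pro-domains, including those of membrane-type MMPs. Its signals were 7.91, 7.86 and 8.30 in the DIO+OF arrays, against 6.62, 6.67 and 7.13 in the DIO arrays. In HBx,src they were 7.03, 6.08 and 6.53 with OF and 7.13, 6.94 and 6.98 in DIO arrays, and the OF effect differed by 1.68 ± 0.32 (adjusted p = 0.0326). The list's median for OF was 0.37 in HBx,src,p53 and -0.17 in HBx,src. Of the 20 integrins and receptors itgb1a, an integrin beta 1 subunit, rose by 1.46 ± 0.30 (adjusted p = 0.0276) in HBx,src,p53, and did not pass without that array (1.36 ± 0.34, adjusted p = 0.109). lrp1ab, a receptor that takes up proteases and their inhibitors, had 0.96 ± 0.32 (adjusted p = 0.166) in HBx,src,p53 and -1.19 ± 0.32 (adjusted p = 0.130) in HBx,src. Neither effect passed on its own, and their difference of 2.15 ± 0.45 did (adjusted p = 0.0482). After the vtg2-low array was left out none of the differences of adamts13 (adjusted p = 0.0583), pcsk5b (0.0777) and lrp1ab (0.108) passed.

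Of the 25 inflammatory inducers junbb, a subunit of the AP-1 transcription factor, rose by 3.17 ± 0.68 (adjusted p = 0.0347) in HBx,src,p53, and did not pass without the vtg2-low array (3.14 ± 0.79, adjusted p = 0.115). Its signals were 5.03, 6.17 and 5.69 with OF, against 2.56, 1.76 and 3.07 in DIO arrays. Of the 4 other inhibitors measured, spock3, a secreted matrix proteoglycan, rose by 1.07 ± 0.24 (adjusted p = 0.0415), and did not pass without that array (0.86 ± 0.24, adjusted p = 0.162). No gene passed among the 16 other metalloproteinases (median -0.17), the 27 TGF-beta pathway genes (median 0.30) or the 30 matrix substrates and crosslinkers (median 0.11). In the TGF-beta pathway 6 of the 27 had an unadjusted p under 0.05, against 14.7% of all probe sets. Among them were tgfbr1a, a type I receptor (1.57 ± 0.52, adjusted p = 0.160), ltbp1, which stores latent TGF-beta (0.93 ± 0.28, adjusted p = 0.121), and ltbp3 (-1.30 ± 0.34, adjusted p = 0.0772). Among the matrix genes loxl2a, which crosslinks collagen, had 3.54 ± 0.85 (adjusted p = 0.0570) and col5a1, a collagen chain, 1.66 ± 0.40 (adjusted p = 0.0573). These 5 genes of lists without a call were picked for their small p and are given as values.

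For DIO+OF against NOR in HBx,src,p53 11 of the 165 genes passed, or 6.667%, against the 3.82% of all probe sets. The 10 that rose were adamts13, adam10b, adam10a and adamts5 of the ADAM and ADAMTS proteases, the membrane serine protease gene tmprss2, the transcription factor genes junbb and sp1, the receptor gene lrp1ab and the collagen genes col5a1 and col6a1. The largest was junbb at 3.28 ± 0.76, followed by col5a1 at 2.09 ± 0.45 and adamts13 at 1.94 ± 0.26. Without the vtg2-low array the order of the latter genes was reversed, with col5a1 at 1.52 ± 0.33 and adamts13 at 1.78 ± 0.27. The gene that fell was ltbp3, a latent TGF-beta binding protein, by 1.82 ± 0.38 (adjusted p = 0.0197). The count without the vtg2-low array was 4 of 165 (adam10b, adamts13, col5a1 and ltbp3), against 2.3% of all probe sets. For DIO against NOR 0 of 165 passed in HBx,src,p53 and 0 in HBx,src. At an unadjusted p under 0.05 there were 17 and 8, against 16.4% and 5.97% of all probe sets. With the vtg2-low array left out, which enters the diet comparison through the shared spread, 1 of 165 was lower in HBx,src,p53, against 3.18% of all probe sets. It was postna, a matrix protein gene of the periostin family, at -1.34 ± 0.33 (adjusted p = 0.0472, against 0.0529 with all arrays). For DIO+OF against NOR in HBx,src 0 passed, with 8 at an unadjusted p under 0.05, against 7.54% of all probe sets.

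**Figure D4:**
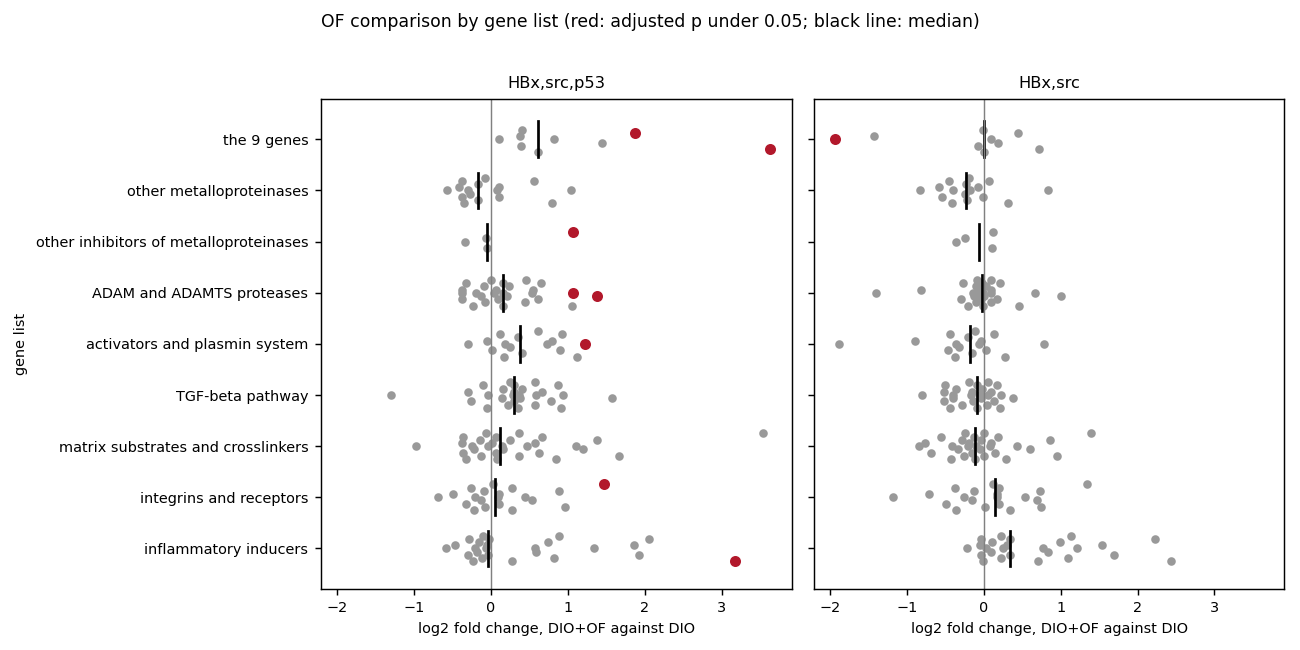
Log2 fold change of DIO+OF against DIO (horizontal axes) for the 9 genes and for each gene of 8 surrounding lists, in HBx,src,p53 on the left and HBx,src on the right. Each point is a gene, red points passed at an adjusted p under 0.05 (2 of the 9 genes and 6 of 165 on the left, mmp14b on the right), and black lines mark the median of each list.

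The named genes whose patterns were most like those that changed were sought over all 17 arrays after the mean of each line was subtracted, with Pearson's r as the measure. These are descriptions over arrays that share batches and groups. For tgfbi they were abcg2a, an ABC transporter gene (r = 0.93), pcsk5b, the convertase gene described above (0.90), and terfa, whose mammalian relatives bind telomeres (0.88). For mmp2 they were dsg2l, a desmoglein gene of cell junctions (0.92), marc1 (0.91) and tmem30c (0.91), and for mmp14b nxnl2 (0.85), gripap1 (0.83) and pcnp (0.82). The r of tgfbi with abcg2a was 0.95 within HBx,src,p53 and 0.83 within HBx,src, and that of mmp14b with nxnl2 was 0.85 and 0.90. Some of the others were lower in 1 line. Within HBx,src,p53 mmp14b had 0.48 with gripap1 and 0.55 with pcnp, and within HBx,src mmp2 had 0.62 with both marc1 and tmem30c.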

How the data were processed

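Total RNA of liver was labelled with biotin and hybridised to ZebGene 1.1 ST arrays read in 1 colour on a GeneTitan instrument. For each array the deposited table gives probe set signals on the log2 scale. Transcriptome Analysis Console is named in the submitters' processing notes. Its version, the summarisation, the normalization and the build were not given in the sources used here. Precision is limited by the number of arrays. The table held 75212 probe sets with 0 missing values, of which 30358 were annotated with 1 gene symbol, 1015 with several and 43839 were not listed.

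In limma 3.58.1 under R 4.3.3, all 17 arrays entered a single fit of 6 group means with empirical Bayes moderation, the kind of test named in the methods of the paper given for these data, and p-values were adjusted over all probe sets (residual df 11, prior df 2.67). A call was an adjusted p under 0.05. A gene was represented by its probe set with the highest mean. Figures used Python 3.11.15 and matplotlib 3.10.9. The fit was tested on simulated data. The genes, lists and tests were chosen with earlier results of these data known, and the fall of mmp14b in HBx,src was among those results. Named beside the 9 genes were up to 4 called genes per list and comparison by smallest p, all 10 that rose against NOR, and the 3 genes most alike each called gene. Marker genes, and list genes that were not called, were named after their values were seen. Alternatives tried were the arrays of 1 line alone, quantile normalization, centring, a filter of the dimmest 40% of probe sets, probe sets with 1 symbol, another prior, array weights, a replicate block, other ways to represent a gene and leaving out each array. Counting equal probe sets once, leaving out arrays of other groups and the list counts without the vtg2-low array were added after seeing the data.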

Additional observations from a re-analysis of the deposited data

Results flagged for a closer look

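The effect of OF differed between HBx,src,p53 and HBx,src, by a test of the difference itself in limma, for tgfbi (5.06 ± 0.83 log2 units, adjusted p = 0.0214), mmp14b (2.34 ± 0.50, 0.0492), adamts13 (1.89 ± 0.33, 0.0244), pcsk5b (1.68 ± 0.32, 0.0326) and lrp1ab (2.15 ± 0.45, 0.0482), each as HBx,src,p53 minus HBx,src. All 5 differences were above 0, and 0 of the 5 passed when the vtg2-low array was left out, where 0.137% of all probe sets did. Groups held 2 or 3 arrays, so no single array was tested as an outlier within its group.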

How the results depend on the processing

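The counts of genes that passed were 1 for OF in HBx,src, 2 for OF in HBx,src,p53, 2 for DIO+OF against NOR in HBx,src,p53 and 2 for the OF difference between the lines. With the arrays of 1 line alone, which leaves fewer arrays for the spread, the first 3 were 0, with adjusted p-values of 0.134 for mmp14b, 0.0539 and 0.0670 for mmp2 and tgfbi with OF, and 0.0809 and 0.0780 for them against NOR. The count for the OF difference was 1 (tgfbi) with quantile normalization, centring, array weights, the mean of all probe sets and the trended and robust prior. With that prior it was 0 for OF in HBx,src and 1 against NOR in HBx,src,p53, and with the mean of all probe sets also 1 there. The cause was not tested. With each array left out in turn, the counts were 0 to 1 for OF in HBx,src, 2 to 2 for OF in HBx,src,p53, 0 to 2 against NOR in HBx,src,p53 and 0 to 2 for the OF difference. Among single values, 757 of 774 kept their call or stayed without one under the other settings, 16 called values lost their call, 1 gained one (mmp2 in the OF difference, adjusted p = 0.0433, with the probe sets of 1 symbol) and 0 called values changed sign. Of values without a call 27 changed sign, among them timp2a with its probe set of largest variance, at -1.16 for OF in HBx,src,p53 and -1.85 for the OF difference. The diet counts stayed at 0 under every alternative run.

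Replicate numbers did not pair the arrays: same-numbered arrays deviated from their group means with r of -0.082 to 0.054 in HBx,src,p53 and -0.066 to 0.098 in HBx,src. With the replicate block the counts were 0 for OF in HBx,src, 1 against NOR in HBx,src,p53 and 1 for the OF difference, and mmp2 and tgfbi passed for OF in HBx,src,p53.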

Other observations

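Within HBx,src,p53 the signals of mmp9 and timp2a had r = 0.86 over 8 arrays and -0.35 over the 7 arrays without the vtg2-low array, and those of mmp2 and tgfbi 0.80 and 0.74. With the group means subtracted, the r of mmp2 and tgfbi was -0.42, so the arrays of 1 group did not share the order of these genes. The exocrine pancreas markers spanned 6.56 to 10.80 in the DIO+OF arrays and 8.19 to 10.16 in the DIO arrays of HBx,src,p53. All 7 had a log2 fold change below 0 for OF there, with a median of -0.93 and 0 passing, and all 7 did in HBx,src, with a median of -1.48. In HBx,src,p53 the vtg2-low array was below every DIO array for all 7, and DIO+OF replicate 1 was above every DIO array. For prss59.1 the DIO+OF arrays were at 12.76, 10.42 and 8.58, against 10.29, 11.70 and 12.03. The signs in HBx,src,p53 thus rest in part on the vtg2-low array.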
